A study of Danio rerio with 8 samples.

Results

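The genes described here are the zebrafish zinc finger genes whose symbol begins with znf and a number. They were picked by name alone, ignoring case. Of 33737 Ensembl identifiers, 167 carried such a symbol, and 150 of these reached 1 RPKM (reads scaled to gene length and to the size of the library) in at least 1 of the 4 deposited tables, among 16217 genes of any name that did so. RNA came from whole zebrafish embryos at 2 and 6 hours post fertilization (hpf) that had received a control morpholino, labelled wild type in the genotype field, or a morpholino against ddx3xb, which codes for a DEAD-box RNA helicase. A morpholino is an antisense oligomer that blocks translation or splicing of its target, and the sources used here give neither its sequence nor its dose. Each of the 4 groups (control and knockdown at 2 hpf, control and knockdown at 6 hpf) held 2 libraries that the authors had combined to 1 value per gene, so every comparison is between 2 values with no replicate error and no p-value.

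Zinc fingers are small protein folds held together by a zinc ion. The commonest kind, C2H2, is usually repeated along the protein and reads DNA, although single Znf proteins bind RNA, ribosomes or the mitotic spindle instead. In zebrafish many C2H2 genes stand in large arrays of near-identical neighbours, and the symbols with the highest numbers were given to genes of this species without a clear human counterpart. The ages sampled lie before and after the start of the embryo's own transcription, so a transcript present at 2 hpf was mostly laid down by the mother. One that appears by 6 hpf is taken here as made by the embryo, which was not tested. The RNA was purified for mRNA, so a low value at 2 hpf does not show that maternal RNA was absent.

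Members were split by their control value at 2 hpf into 60 maternal ones (5 RPKM or more), 54 zygotic ones (under 1 RPKM) and 36 intermediate ones. Just inside the maternal limit stood znf1152 and znf576.1, both at 5.02 RPKM, and just outside it ZNF277 at 4.72 and znf1161 at 4.69 RPKM. At the zygotic limit znf1009 (1.01 RPKM) and znf1175 (1.05 RPKM) lay above and znf1151 (0.943 RPKM) and znf1128 (0.874 RPKM) below. Of the 167, 12 identifiers shared 6 symbols in pairs, and such copies are told apart below by the Ensembl identifier. The 17 members under 1 RPKM in every table, led by znf365 (0.853 RPKM in control at 2 hpf), were not compared, and the second znf423 identifier was listed at 0 in all tables.

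Groups were compared on the log2(RPKM + 1) scale, where changes of low values come out too small. A gene is called risen or fallen only at 2-fold or more on that scale. The median ratio over 10479 genes at 1 RPKM or more in every table was -0.18 for knockdown against control at 2 hpf, 0.28 at 6 hpf, -0.49 from 2 to 6 hpf in control and 0.0069 in knockdown embryos, so small differences need reading against these shifts. Low values moved in steps of single reads, which put the relative depth of the libraries between 1 and 0.490, and gave for each member a lower limit on the reads behind its values. The targeted transcript ddx3xb stood at 273.9 (control) and 250.8 RPKM (knockdown) at 2 hpf and was higher in the knockdown at 6 hpf, 141 against 322 RPKM. Since morpholinos act on translation or splicing, these levels do not check the labels. All 7 maternal and oocyte markers exceeded 1 RPKM in every table, with a summed level of 701 (control) and 848 RPKM (knockdown) at 2 hpf, then 203 and 328 RPKM. At 2 hpf org (181 and 370 RPKM), DAZL and ZAR1 were higher in the knockdown, and buc, zp3b, GDF9 and DDX4 were lower. At 6 hpf all 7 were higher in the knockdown. The 5 matched gastrula markers summed to 0.716 and 0.504 RPKM at 2 hpf and to 977 and 307 RPKM at 6 hpf, where krt5 made up most of the control sum and noto alone was higher in the knockdown. The maternal sum was thus higher, and the gastrula sum lower, in knockdown than in control at 6 hpf, and their part in the results below was not tested. Of markers of later tissues, hbae1.1 and NEUROD1 were at 0 in every table and the summed level of the list did not exceed 2.95 RPKM. In RNA of whole embryos, fewer cells of a type and less RNA per cell cannot be told apart.

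Maternal Znf transcripts were led by a few abundant genes. ZNF395 (ENSDARG00000060113), whose human counterpart was described as a promoter-binding factor, was the highest in all 4 tables, with 199 (control) and 189 RPKM (knockdown) at 2 hpf, then 201 and 179.8 RPKM. Its level hardly moved with age or treatment. ZNF706, a small protein with a single finger, stood at 145 and 139.6 RPKM at 2 hpf, then at 37.6 and 59.1 RPKM, lower at the later age in both arms. ZNF207, a protein of the mitotic spindle and kinetochore in human cells, was level, with 120.3 and 125 RPKM, then 111 and 112 RPKM. The double-stranded RNA binding gene znf346 was near level too, with 118 and 113 RPKM, then 91.2 and 110.3 RPKM.

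The next members were znf280d (117 and 84.0 RPKM at 2 hpf, 59.6 and 86.6 RPKM at 6 hpf) and ZNF281 (ENSDARG00000035910), a factor of the pluripotency network in mouse stem cells (94.6 and 65.2 RPKM, then 79.2 and 137 RPKM). In both, the knockdown value was below control at 2 hpf and above it at 6 hpf. The same held for znf576.2 (91.9 and 68.7 RPKM, then 120.2 and 157 RPKM) and znf740a (61.7 and 51.4 RPKM, then 63.9 and 74.2 RPKM). Over all maternal genes the median log2 ratio of knockdown against control was -0.18 at 2 hpf and 0.35 at 6 hpf. This course is therefore not read as a trait of these members. The top 5 members held 33.7% of the family's summed RPKM in control at 2 hpf and 29.4% at 6 hpf. The family as a whole summed to 2078 and 1779 RPKM at 2 hpf, then to 2052 and 2425 RPKM. As a share of all RPKM in each table this was 0.481% and 0.243%, then 0.445% and 0.512%, where the knockdown table at 2 hpf summed to 731302 RPKM and the control table of that age to 431798 RPKM. The median member stood at 3.45, 2.62, 5.97 and 6.05 RPKM in control and knockdown at 2 hpf and control and knockdown at 6 hpf.

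At 2 hpf no member rose and 1 fell (0.667%), where 0.506% of all genes compared had risen and 0.943% had fallen. The members were thus near the shares of all genes. Zygotic members, under 1 RPKM in control, could not fall by 2-fold on the log2(RPKM + 1) scale. The 1 that fell was the intermediate gene znf384b, at 3.09 RPKM in control against 0.420 RPKM in the knockdown (log2 ratio -1.53), in a class where 0.535% of all genes had risen and 1.76% had fallen. It was at 0.426 and 1.2 RPKM at 6 hpf, so the knockdown value was the lower one at 2 hpf and the higher one at 6 hpf. At least 11 reads stood behind the control and 2 behind the knockdown value at 2 hpf, and the ratio shrank to -0.58 with a pseudocount of 5 RPKM.

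At 2 hpf the median log2 ratio was -0.23 over the maternal members and -0.18 over all 8619 maternal genes, of which 0.267% had risen and 0.975% had fallen. The largest shortfalls were in ZNF711, a gene tied to intellectual disability in humans (11.4 against 5.65 RPKM, log2 ratio -0.90), znf1143 (8.32 and 4.26 RPKM) and the lower of the ZNF710 copies (ENSDARG00000005549, 5.33 and 2.61 RPKM). None of these passed 2-fold on the log2(RPKM + 1) scale, although ZNF711 and this ZNF710 copy did so on plain RPKM. ZNF330, a nucleolar protein gene, stood at 23.1 and 15.5 RPKM. Of 6 maternal members at or above control, ZNF507 lay farthest, at 5.64 and 7.22 RPKM, followed by ZNF687 at 15.6 and 17.8 RPKM.

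Zygotic members are under 1 RPKM in control at 2 hpf by the rule of the class. Of the 54, none reached 1 RPKM in knockdown embryos at 2 hpf, beside 212 of all 3673 zygotic genes. None had risen, beside 1.03% of all zygotic genes, while 19 of 54 stood above their control value, beside 1427 of all 3673. With limits chosen after the values were seen, 4 reached 0.2 RPKM and exceeded 3 times the control value and 2 did so in control against the knockdown, and these counts were not set against other genes. The highest of the 4 was znf1089, at 0.0604 RPKM in control against 0.937 RPKM in the knockdown, with at least 1 and 11 reads behind the values. znf1127 stood at 0.0554 and 0.508 RPKM (at least 1 and 7 reads), and znf1042 at 0.0193 and 0.220 RPKM (at least 1 and 9 reads). znf1044 was listed at 0 in control and stood at 0.276 RPKM in knockdown embryos, for which the steps set no more than 1 read as a lower limit. On the log2 (RPKM + 1) scale none of these passed 2-fold, whereas a pseudocount of 0.1 RPKM gave 4 rises and 6 falls among all members at 2 hpf. The shares of all genes called with that pseudocount were not computed.

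From 2 to 6 hpf in control embryos 66 of the 150 members rose and 25 fell, where 27.5% of all genes rose and 28% fell. In knockdown embryos 72 rose and 11 fell, where 25.5% of all genes rose and 13% fell. The split by class uses the control value at 2 hpf, so the following counts describe the classes and test nothing. Of the maternal members 17 fell (28.3%) and 7 rose, beside 42.6% and 10.5% of all maternal genes. Their median was -0.37 and that of all maternal genes -0.77. In knockdown embryos 9 maternal members fell (15.0%) and 10 rose, beside 21.6% and 14% of all maternal genes, with medians of 0.036 and -0.16. The members' median changed sign with rescaling by the median ratio in control (0.12). In the knockdown it changed sign with quantile normalization (-0.20) and with class limits of 10 and 0.5 RPKM (-0.095). It did so too with classes set by the knockdown value (-0.15) or by the mean of both arms at 2 hpf (-0.072). Of the 17 that fell in control and the 9 in knockdown embryos 8 were shared, which is 47.1% of the first list and 88.9% of the second. Overlaps between the arms, here and below, were not computed over all genes, so they are not read as a trait of the members.

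ZNF652, coding for a partner of transcriptional corepressors in human cells, fell most in control, from 35.0 to 3.42 RPKM, and in the knockdown from 30.8 to 4.88 RPKM. ZNF653 fell from 58.5 to 7.06 RPKM in control embryos and from 37.5 to 18.2 RPKM in knockdown embryos, a change that was much larger in control. ZNF367 fell alike in both arms, from 55.6 to 16.4 RPKM and from 51.5 to 16.7 RPKM. The BTB zinc finger gene ZNF131 fell in control (70.6 to 17.3 RPKM) and stood just short of 2-fold lower in the knockdown (62.2 to 31.6 RPKM, log2 change -0.95). The ubiquitin ligase gene ZNF598, whose human product senses collided ribosomes, fell in control from 35.1 to 12.5 RPKM and was at 33.4 and 24.3 RPKM in the knockdown.

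Some maternal members rose with age. The largest rise was in znf318, at 11.6 and 44.6 RPKM in control and 9.34 and 29.9 RPKM in knockdown embryos. ZNF503, a corepressor gene of the Noc/Elbow family that acts in hindbrain patterning in zebrafish, rose in control (5.57 to 21.1 RPKM). In the knockdown it stayed short of 2-fold on the log2(RPKM + 1) scale (4.11 to 8.45 RPKM, log2 change 0.89). In the reverse pattern ZNF281 (ENSDARG00000035910) and ZNF143, an activator of small nuclear RNA genes (ENSDARG00000012887, 12.2 to 22.8 RPKM in control and 10.2 to 24.1 RPKM in knockdown), were among 5 that passed 2-fold in the knockdown and not in control. Of the 54 zygotic members 49 rose in control and 48 in knockdown embryos (90.7% and 88.9%), with 47 in common and medians of 1.99 and 2.19. All 54 passed the filter of 1 RPKM through a value at 6 hpf only, so these rises were largely set by the choice of genes. The class limit and the filter were the same for zygotic genes of any name. All 3673 zygotic genes rose in 75.3% and 59.1% of cases, with medians of 1.65 and 1.25. The order of the members' medians turned under rescaling by the median ratio (2.29 in control, 2.19 in the knockdown), and with a pseudocount of 5 RPKM both were 0.83.

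**Figure D1:**
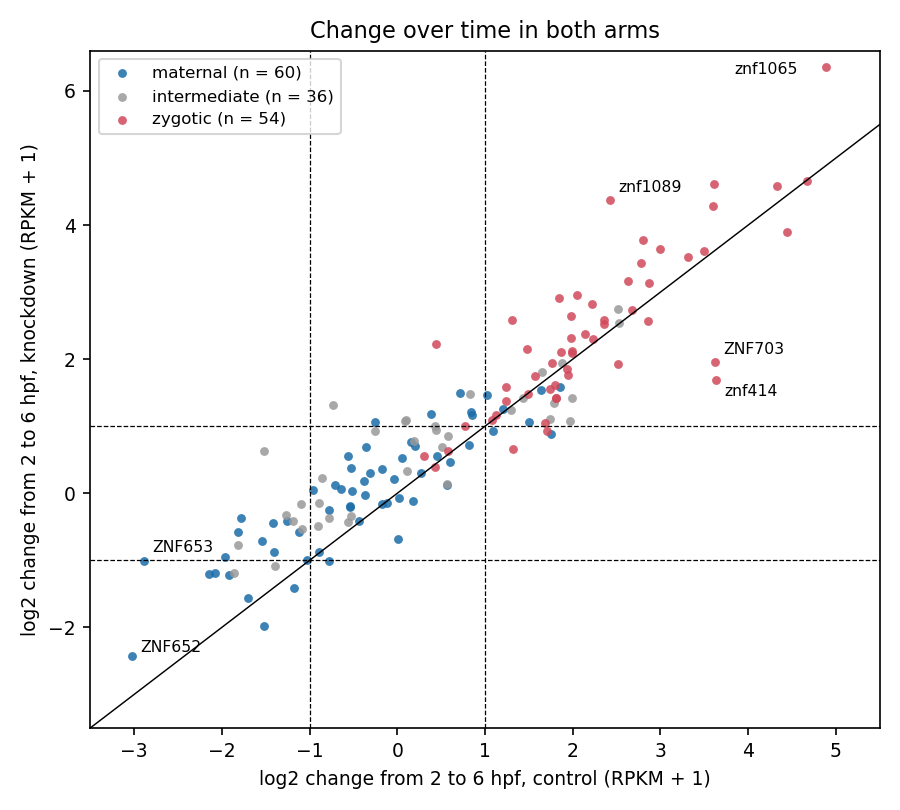
Log2 change of (RPKM + 1) from 2 to 6 hpf in control (horizontal axis) and knockdown embryos (vertical axis), 1 point per member, coloured by class; the solid line marks equal change and dashed lines 2-fold. Zygotic members lie at the upper right with znf1065 at 4.89 and 6.35, ZNF703 and znf414 lie below the line, and ZNF653 lies above it at -2.88 and -1.01.

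The intermediate members divided. In control embryos 10 rose (27.8%) and 8 fell (22.2%), beside 19.8% and 22.3% of all intermediate genes, and in the knockdown 14 rose and 2 fell, beside 19.2% and 5.71%. The 10 that rose in control all rose in the knockdown, among them znf1171 (1.73 to 14.7 RPKM and 1.47 to 13.3 RPKM) and znf1144 (1.75 to 14.7 RPKM and 1.03 to 12.6 RPKM). The largest fall in both arms was that of znf296 (3.96 to 0.363 RPKM in control, 2.62 to 0.583 RPKM in knockdown), and znf423, whose mammalian counterpart acts with SMAD proteins in BMP signalling, passed 2-fold in control and not in the knockdown (ENSDARG00000059707, 3.11 to 0.920 RPKM and 2.82 to 2.43 RPKM).

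At 6 hpf 10 of 150 members had risen in the knockdown and 4 had fallen, where 8.72% of all genes had risen and 7.87% had fallen. This comparison does not use the values behind the classes, but its own values are part of the filter of 1 RPKM. The shares of members were 6.67% and 2.67%. With the tables rescaled by their median ratio 5 members had risen and 6 had fallen. With quantile normalization the numbers were 7 and 5. The shares of all genes called after these rescalings were not computed.

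Among the 60 maternal members 3 had risen and 1 had fallen at 6 hpf, beside 12.4% and 1.9% of all maternal genes, and their median log2 ratio was 0.073, beside 0.35 over all maternal genes. Rescaling by the median ratio left none risen, although 5.09% of all maternal genes still rose, and turned the members' median to -0.22 (all maternal genes 0.060). Quantile normalization turned it to -0.045 (all 0.24). ZNF653, coding for a transcriptional repressor, stood at 7.06 RPKM in control against 18.2 RPKM in the knockdown (log2 ratio 1.25), both below its values at 2 hpf. The more abundant ZNF710 copy (ENSDARG00000014680) was at 41.1 and 35.4 RPKM, then at 11.2 and 27.3 RPKM (1.21), and the less abundant ZNF395 copy (ENSDARG00000024195) at 6.83 and 5.87 RPKM, then at 1.22 and 3.62 RPKM (1.06). In these 3 genes the knockdown value at 6 hpf lay between the control value of that age and the level at 2 hpf. None of the 3 kept 2-fold after rescaling by the median ratio (0.96, 0.91 and 0.85) or with a pseudocount of 5 RPKM.

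Other maternal members lay close to 2-fold on the log2(RPKM + 1) scale without passing it. ZNF622, whose yeast relative helps mature the large ribosomal subunit, was at 69.5 and 60.4 RPKM, then at 46.9 and 89.6 RPKM (log2 ratio 0.92). ZNF598 stood at 12.5 and 24.3 RPKM (0.91). ZNF131 (17.3 and 31.6 RPKM), ZNF76, a relative of ZNF143 (4.96 and 9.61 RPKM), and ZNF281 (ENSDARG00000035910, 79.2 and 137 RPKM) had ratios of 0.83, 0.83 and 0.78, and znf692 (0.654 and 1.87 RPKM) one of 0.79. On plain RPKM znf692 was 2.85-fold higher in the knockdown. Far from 2-fold were znf593, another gene with a yeast relative in large subunit assembly (44.3 and 43.6 RPKM), and ZNF330 (25.8 and 27.2 RPKM).

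The maternal member that fell was ZNF503, at 21.1 RPKM in control against 8.45 RPKM in the knockdown (log2 ratio -1.23). Next were znf800b (20.0 and 9.99 RPKM, -0.93), znf839 (22.9 and 14.8 RPKM, -0.59), ZNF618 (7.05 and 4.34 RPKM, -0.59) and znf318 (44.6 and 29.9 RPKM, -0.56), which did not pass. Of these, ZNF503, znf800b and znf318 are among the maternal members that rose with age in control embryos. Of the intermediate members ZNF277 had risen, from 2.43 to 8.43 RPKM (1.46), after 4.72 and 2.80 RPKM at 2 hpf. ZNF335, part of a histone methyltransferase complex in human cells, had fallen from 15.1 to 7.01 RPKM (-1.01), just past the limit. Those 2 calls compare with 4.25% risen and 5.3% fallen among all intermediate genes. The remaining 34 stayed within 2-fold on the log2(RPKM + 1) scale. On plain RPKM some low ones were past 2-fold and higher in the knockdown, such as ZNF804A (0.232 and 0.756 RPKM).

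**Figure D2:**
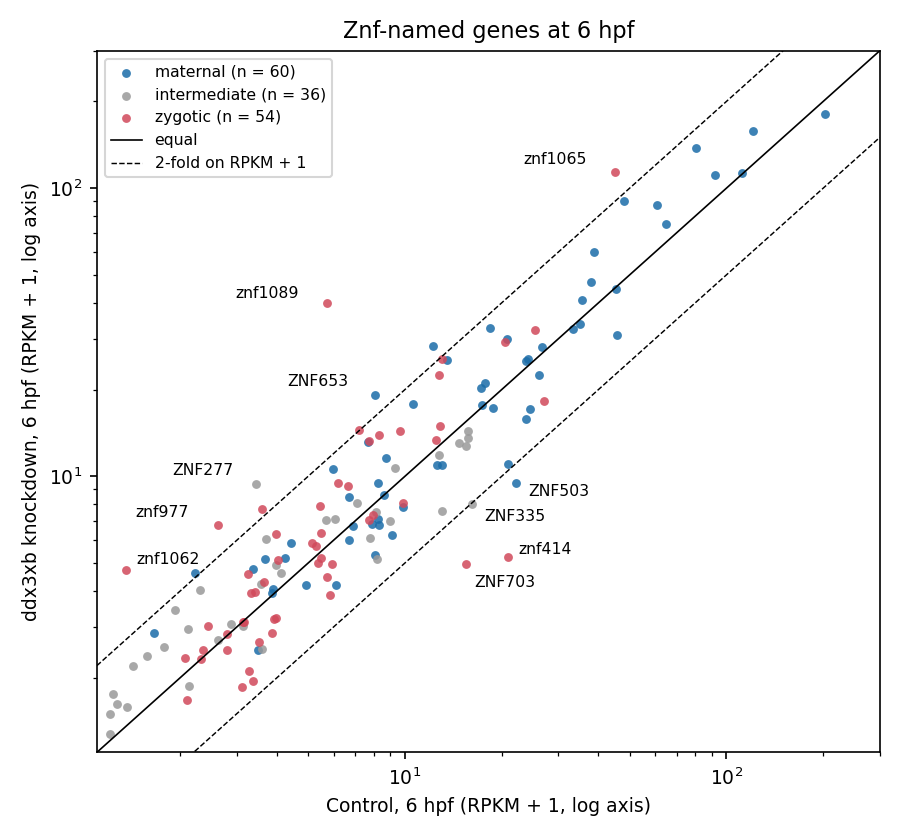
RPKM + 1 at 6 hpf in control (horizontal, log axis) and knockdown embryos (vertical, log axis) for the 150 members, 1 value per group of 2 libraries, with the line of equality and dashed lines at 2-fold. Most points lie between the dashed lines; znf1089, znf1062 and ZNF277 lie farthest above and znf414 and ZNF703 farthest below.

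Among the 54 zygotic members 6 had risen (11.1%) and 2 had fallen (3.70%) at 6 hpf, beside 4.96% and 24.6% of all zygotic genes. Their median log2 ratio was 0.15 against -0.38 over all zygotic genes. After rescaling by the median ratio 4 had risen and 2 had fallen, with a median of -0.087, beside 3.16% and 32.4% of all zygotic genes and a median of -0.60. The share of fallen zygotic members was below, and their median above, that of all zygotic genes in all 11 settings computed, the main one included. Every setting started from the same deposited values and treated members like any other gene. Their number therefore adds no independent evidence for the difference. No test of this difference was possible with 1 value per group.

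The largest rise was that of znf1089. From the values at 2 hpf given above it went to 4.71 RPKM in control against 39.1 RPKM in the knockdown (log2 ratio 2.81), so it was higher in the knockdown at both ages. By this ratio it ranked 2 among all 16217 genes, with at least 42 reads behind the control and 318 behind the knockdown value at 6 hpf. znf1062 was listed at 0 and stood at 0.00844 RPKM at 2 hpf, and was at 0.357 and 3.71 RPKM at 6 hpf (1.80, at least 27 and 255 reads), the only member past 2-fold that was under 1 RPKM in 3 tables. It passed the filter of 1 RPKM only through its knockdown value at 6 hpf. Its place among the 6 zygotic members that had risen is thus partly set by the choice of genes. znf977 stood at 1.63 and 5.75 RPKM (1.36, at least 15 and 47 reads).

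znf1065 was the most abundant zygotic member in both arms, with 0.523 and 0.393 RPKM, then 44.1 and 113 RPKM (log2 ratio 1.34). It was near absent in both arms at 2 hpf and high in both at 6 hpf. The last that had risen were znf1058 at 2.59 and 6.70 RPKM (1.1) and znf1020 at 6.19 and 13.4 RPKM, just at 2-fold, and neither stayed past 2-fold after rescaling by the median ratio (0.85 and 0.72) or with quantile normalization. Just below the limit on the log2(RPKM + 1) scale stood znf1064 (12.1 and 24.6 RPKM, 0.97), znf1066 (11.8 and 21.5 RPKM, 0.81) and znf1127 (6.72 and 12.2 RPKM, 0.78). Other abundant zygotic members were nearer to equal, with znf1044 at 24.4 and 31.1 RPKM, znf1042 at 19.4 and 28.2 RPKM, znf1055 at 11.9 and 14.0 RPKM and znf1059 at 11.5 and 12.4 RPKM. znf1044, znf1042 and znf1127, which like znf1089 were above control at 2 hpf, thus stayed within 2-fold at 6 hpf.

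The zygotic members that fell were znf414 and ZNF703. znf414 stood at 0.682 and 0.626 RPKM, then at 19.9 and 4.27 RPKM (log2 ratio -1.99). ZNF703, a Noc/Elbow family corepressor like ZNF503, was at 0.255 and 0.277 RPKM and then at 14.5 and 3.94 RPKM (-1.65). Both rose with age in both arms and reached less in the knockdown. Both kept 2-fold with either other pseudocount and either rescaling, the only alternatives that could change their ratios. The other ZNF281 copy (ENSDARG00000000567) was at 26.1 and 17.3 RPKM at 6 hpf (-0.56) and did not pass.

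**Figure D3:**
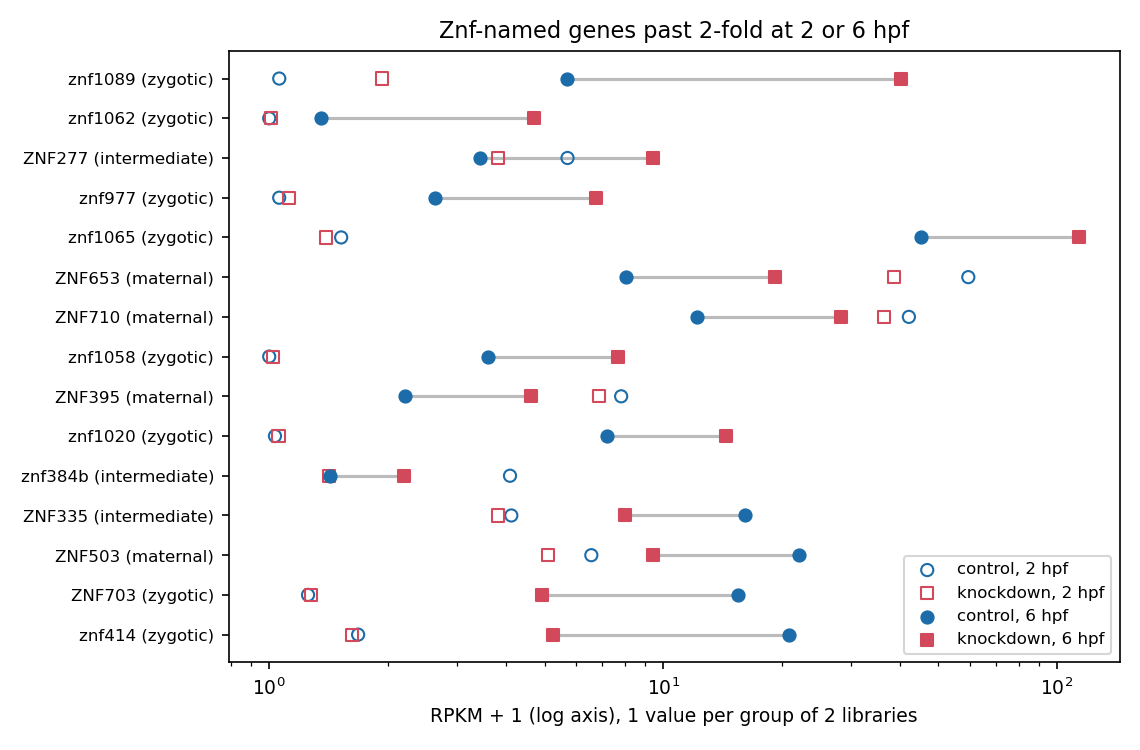
RPKM + 1 (log axis) in the 4 groups for the 15 members past 2-fold between knockdown and control at 2 or 6 hpf, 1 value per group of 2 libraries, ordered by the ratio at 6 hpf; the grey bar joins the values at 6 hpf. The high-numbered zygotic genes are below 2 (RPKM under 1) at 2 hpf and higher in knockdown at 6 hpf. ZNF653, ZNF710 (ENSDARG00000014680) and the less abundant ZNF395 copy (ENSDARG00000024195) are lower at 6 hpf than at 2 hpf in both arms.

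A split of the members by symbol number was made after the values were seen and is a description with no test. Symbols ran up to 865 and then from 970 to 1185. With the limit set at 900, 48 of the 54 zygotic members, 10 of the 60 maternal and 17 of the 36 intermediate ones belonged to the high-numbered series. All 6 zygotic members that rose belonged to it (12.5% of the 48) and none of the 48 fell, with a median log2 ratio of 0.21 and quartiles of -0.14 and 0.58. Over all zygotic genes 4.96% had risen and 24.6% had fallen, with a median of -0.38. Of the 6 zygotic members with other numbers (znf414, ZNF703, ZNF281, ZNF410, ZNF143 and znf569l) 2 fell and none rose, with a median of -0.46. Since nearly all zygotic members are high-numbered and the others are so few, these counts do not set the groups apart. The high-numbered members held 8.90% of the family's summed RPKM in control at 2 hpf, and 24.7% in control and 28.6% in knockdown at 6 hpf. Their sum at 6 hpf was 507 RPKM in control against 694 RPKM in the knockdown. Abundant genes such as znf1065 (44.1 and 113 RPKM) weigh most in such a sum. Of the 75 high-numbered members 47 were above control at 6 hpf, beside 9897 of all 16217 genes. Their median log2 ratio was 0.19, beside 0.20 over all genes, so the sum is not read as a rise of the series. Near-identical array genes can share reads, which leaves single high-numbered genes uncertain, and how the authors' counting treated such reads is not given in the sources used here.

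**Figure D4:**
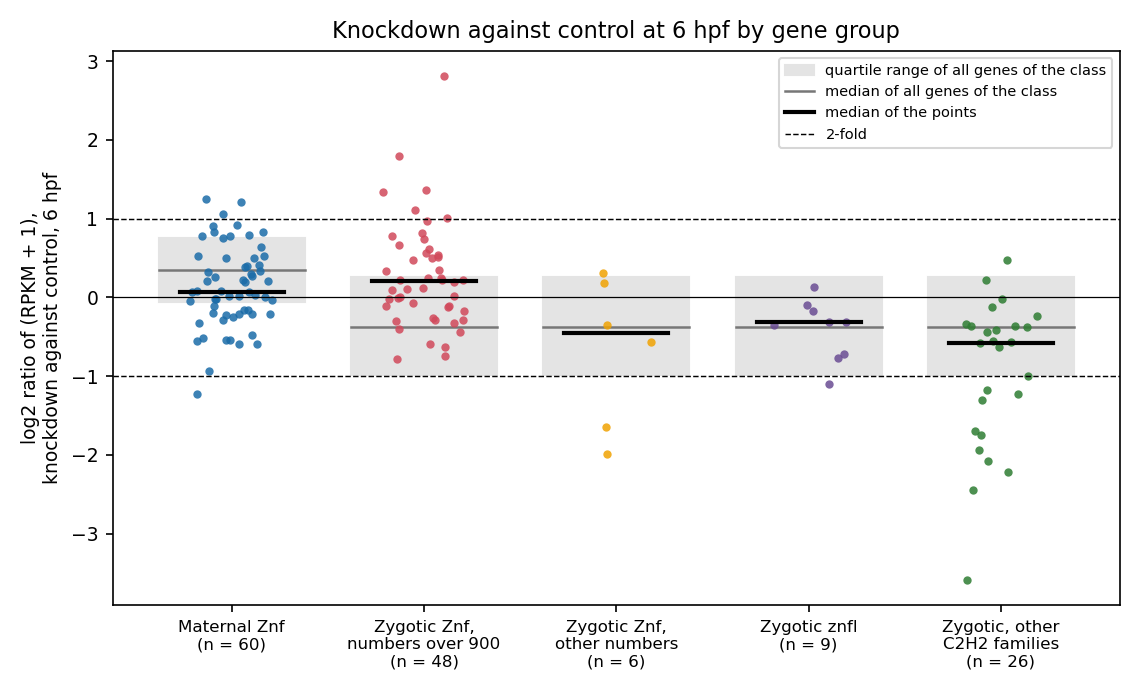
Log2 ratio of (RPKM + 1), knockdown against control at 6 hpf, 1 point per gene for maternal Znf genes, zygotic Znf genes with numbers over 900 and with other numbers, zygotic znfl genes and zygotic genes of other C2H2 families; black bars are medians of the points, grey boxes and lines the quartiles and median of all genes of the same class, horizontal jitter is random. The medians are 0.073, 0.21, -0.46, -0.32 and -0.58 from left to right.

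Among the 6 shared symbols, 4 had both copies at 1 RPKM or more in some table. The abundant ZNF395 copy was level and the other was lower at 6 hpf, as given above. ZNF143 had a maternal copy that was near equal between the arms at 6 hpf (22.8 and 24.1 RPKM) and a copy that stayed low in all tables (ENSDARG00000041581, 0.672 and 0.602 RPKM at 2 hpf, 1.06 and 1.34 RPKM at 6 hpf). The maternal ZNF281 copy stood above control at 6 hpf and the zygotic one below it. ZNF710 had copies at 11.2 and 27.3 RPKM and at 2.86 and 2.94 RPKM at 6 hpf. The ZNF362 copies ran alike, the higher one at 1.25 and 0.792 RPKM, then 0.207 and 0.279 RPKM, and the one below the filter at 0.691 and 0.518 RPKM, then 0.20 and 0.285 RPKM. Reads that copies share could not be told apart here.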

How the data were processed

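RNA-seq tables of 8 libraries in 4 groups of 2 were used. Per the labels' protocols, TRIzol RNA went through Dynabeads mRNA purification into a KAPA kit that keeps strand. HISAT2 2.0.5, SAMtools 1.9, Trimmomatic 0.36, cutadapt 1.13 and the build Zv9 come from the submitters' processing notes. Which counter, strand setting, annotation and lengths were used is not given in the sources used here. For each gene the authors deposited 1 RPKM value per group, in tables without headers that were matched to groups by arm and age. Control embryos are wild type by genotype label and control morpholino by title, and were taken as the same. One knockdown library at 6 hpf is labelled ddx4xb in its genotype field and ddx3xb in its title, and the title was followed. The embryos at 4 hpf were not analysed here.

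Symbols came from a table of gene names that matched 21939 of 33737 identifiers (12259 of the 16217 genes compared). Genes at 1 RPKM or more in any table were compared as log2(RPKM + 1) and called at 2-fold. Values and plots were made with Python 3.11.15 with numpy 2.4.6, pandas 2.3.3 and matplotlib 3.10.9. The calls were run on simulated data, with changes well past 2-fold put into well-expressed genes and little noise in the rest. That checks the arithmetic of the calls only, and not their error on low values or between libraries. The depth of single libraries is unknown. Relative depths came from ratios of low values (under 0.3 RPKM, tolerance 0.0003 in log2) that pile up at single-read steps. The lower limit of reads takes a gene's smallest value above 0 as at least 1 read, and it covers counting error only. Members, classes and lists were chosen with earlier results of these data known. Members were named by rule: the 10 highest maternal and zygotic ones, up to 10 largest ratios per direction, age and class at 5 RPKM or more, and those next to the class limits. The others named, and the split by symbol number, were chosen after their values were seen. Counts of finger motifs, promoter letters and neighbouring members were planned and not made, because no sequences were used here and 78 of 150 members (52.0%) matched the RefSeq gene table of GRCz12tu by symbol, too few for a check of neighbours.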

Additional observations from a re-analysis of the deposited data

How the results depend on the processing

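No paired analysis was possible because each group has 1 value per gene, and for the same reason no library could be left out. Of 10 alternatives run on 18 summaries (180 values), 139 values stayed within 1.5 times the count or 0.1 of the median, 38 moved and 3 changed sign, and the medians over time were followed apart from these. Of 146 values of the 15 called members, 127 stayed past 2-fold, 19 fell short and none changed sign. A member's own ratio depends on the pseudocount and the rescaling only. The alternatives that changed the filter, the classes or the identifiers kept could not move it, so the 127 overstate the stability of these calls. In the same way, counts over all members could not move where only the classes changed. The alternative restricted to proteins with a finger motif was not run. Under the alternatives, shares over all genes were computed only for the maternal and zygotic classes at 6 hpf. Over the settings 4.56% to 18.3% of all maternal genes had risen and 1.02% to 4.98% had fallen. Of the maternal members 0% to 6.67% had risen and 0% to 3.33% had fallen. Among all zygotic genes 1.14% to 11.9% had risen and 5.67% to 39.1% had fallen, beside 3.70% to 20% and 2.13% to 8% of the zygotic members. The counts of members below stand without the share of their own setting and cannot be compared between settings by themselves.

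With a pseudocount of 5 RPKM, 0 maternal members had risen and 0 had fallen at 6 hpf, 2 zygotic (also 2 high-numbered zygotic) and 2 members in all had risen and 2 in all had fallen, and at 2 hpf 0 had fallen. Over time 4 maternal members rose and 10 fell in control, 5 maternal fell in knockdown, and 17 and 22 zygotic ones rose in control and knockdown. With 0.1 RPKM, 17 members had risen at 6 hpf, 4 zygotic had fallen (2 of them high-numbered), and at 2 hpf 4 had risen and 6 had fallen.

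Rescaling by the median ratio gave 0 risen and 2 fallen maternal members at 6 hpf (median -0.22), a zygotic median of -0.087, 5 risen in all, and in control over time 13 maternal risen, 11 fallen and a median of 0.12. Quantile normalization gave 2 maternal fallen, medians of -0.045 (maternal) and 0.047 (zygotic), and a maternal median over time of -0.20 in knockdown.

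A filter of 5 RPKM left 25 zygotic members to compare. It gave a zygotic median of 0.53 at 6 hpf, a rise over time of all 25 in each arm and 0 members fallen at 2 hpf. These 25 passed the filter only through a value at 6 hpf, so their rises were largely set by the choice of genes. The median of 0.53 is likewise taken over values that the filter selected on. Classes by the knockdown table gave 0 maternal fallen and a median of 0.21 at 6 hpf, 3 maternal risen in control over time and a median of -0.15 in knockdown. Classes by the mean gave 0, 0.20 and, over time in knockdown, -0.072. Class limits of 10 and 0.5 RPKM left 36 maternal members. They gave 0 maternal and 1 zygotic fallen at 6 hpf. Over time 2 and 6 maternal members rose in control and knockdown, with a maternal median of -0.095 in knockdown. Keeping only symbols of 1 identifier left 1 maternal member risen. Apart from what these settings change by their own construction, the cause was not tested.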

Other observations

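Other C2H2 families, taken by the prefixes klf, zbtb, zic, snai, egr, sall, prdm, ikzf, zeb, sp and gli with a number, gave 86 genes at 1 RPKM or more (the prefix also takes in ZBTB8OS and sp100.4, which are no C2H2 factors). Against control, 4 of them rose (4.65%) and 15 fell (17.4%) at 6 hpf, beside 8.72% and 7.87% of all genes. Of their 26 zygotic members none had risen and 10 had fallen (38.5%, median log2 ratio -0.58), beside 4.96% and 24.6% of all zygotic genes. The falls were led by PRDM14, a factor of pluripotency and motor neurons, at 26.2 RPKM in control against 1.26 RPKM in the knockdown. SP5, a target of Wnt signalling, stood at 18.2 and 2.52 RPKM, KLF4 at 4.52 and 0.310 RPKM, and PRDM1, a regulator of terminal differentiation, at 5.48 and 0.388 RPKM. A ZIC2 identifier stood at 24.9 and 5.72 RPKM, and the other was far more abundant and within 2-fold (318 and 247 RPKM). Their 29 maternal members had 1 rise (snai2, 45.6 and 93.2 RPKM) and 1 fall (snai1a, 235 and 113 RPKM), beside 12.4% and 1.9% of all maternal genes, with a median of 0.27. Their 31 intermediate members had 3 rises and 4 falls at 6 hpf, beside 4.25% and 5.3% of all intermediate genes. Among these, klf2a stood at 7.27 RPKM in control against 29.1 RPKM in the knockdown, and SALL1 at 19.7 against 4.40 RPKM.

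The 9 znfl genes, a separately named zebrafish zinc finger family, were all zygotic, and 5 of them were listed at 0 in control at 2 hpf. All 9 rose from 2 to 6 hpf in control and 8 in knockdown embryos, beside 75.3% and 59.1% of all zygotic genes, a class that low values at 2 hpf define. At 6 hpf znfl2a, the most abundant, stood at 144 against 115 RPKM. Only znfl1i fell (8.55 against 3.46 RPKM, 11.1% of the 9) and none rose, with a median of -0.32. Over all zygotic genes 24.6% had fallen and 4.96% had risen, with a median of -0.38, so the znfl median is near that of the class.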
